A study of Mus musculus with 8 samples.

Results

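The genes described here are 8 iron storage and transport genes of mouse vascular mural cells, Ftl1, Fth1, Tfrc, Slc40a1, Slc11a1, Hmox1, Trf and Cp, out of 37979 genes in the expression table. The list was drawn up around Ftl1, which was chosen by its measured level: it was the most abundant gene in 2 of the SMC libraries. Its values are therefore given as a description with no test. The other 7 genes were listed for their function, with earlier results of these data known, and were tested. All 8 genes had FPKM above 0 in every library, so none was lost to the filter that left 27414 genes for testing.

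RNA was sequenced from cells sorted from hindlimb skeletal muscle of Ai14+/−;SM22α-Cre+ mice of both sexes aged 3 to 4 months, in 4 libraries of pericytes and 4 libraries of smooth muscle cells (SMCs). All animals carried both alleles: the SM22α promoter drives Cre, which switches on tdTomato for good in any cell that has used that promoter. Pericytes were sorted as PDGFRβ+tdTomato− and SMCs as PDGFRβ+tdTomato+ cells, after CD31- and CD45-labelled cells had been gated out, and several sorts were pooled into each library. The sources do not say whether libraries of the same number share animals, and the p-values cover only the spread between these pooled libraries. Expression is given as FPKM, a fragment count scaled to transcript length and library size, so that levels of different genes can be compared.

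Genes of both gated proteins were measured in the sorted cells: Ptprc, the gene of CD45, had 80.6 to 230 FPKM in pericytes and 4.34 to 11.9 FPKM in SMCs, and Pecam1, the gene of CD31, had 25.0 to 59.7 FPKM in pericytes and 102 to 301 FPKM in SMCs (limma q = 0.00873). The immunoglobulin gene Igkc was the highest gene of 3 pericyte libraries. Every library of the group was high in each case, so no comparison could be made without them. Mural cell markers were present in both groups. Tagln, the gene of SM22α itself, overlapped between them, at 165 to 551 FPKM in the tdTomato− pericytes and 500 to 1570 FPKM in SMCs (limma q = 0.110).

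Cells take up iron mainly as transferrin, through the transferrin receptor, and store what they do not use inside ferritin, a hollow shell built from heavy and light chains. The heavy chain oxidizes iron so that it can enter the shell, and the light chain helps to form the mineral core. Surplus iron leaves through ferroportin, the only known iron exporter of mammalian cells, and ceruloplasmin oxidizes the exported iron so that transferrin can bind it. Heme oxygenase 1 frees iron from heme, and macrophages use it together with ferroportin when they recycle iron from red blood cells. Much of this system is set after transcription, by iron regulatory proteins that bind a hairpin, the iron responsive element, in the untranslated regions (UTRs) of its mRNAs.

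The hairpins are shown as a sequence feature of 4 of the 8 genes. Since the element is known from mRNAs of the iron system, and the genes were listed by function, the match is no independent result. In the GENCODE annotation of NCBI Build 37 (NCBIM37), the build of the expression table, 3 of the genes carried the canonical form in the 5′ UTR. That form is an unpaired C, a stem of 5 base pairs (G paired with T allowed) and a loop reading CAGTG followed by A, C or T. Windows of 30 bases are written 5′ to 3′ in the sense strand, with the 6 loop bases in capitals.
Fth1, chr19:10057222-10057251, plus strand, 5′ UTR: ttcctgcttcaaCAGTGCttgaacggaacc
Ftl1, chr7:52715148-52715177, minus strand, 5′ UTR: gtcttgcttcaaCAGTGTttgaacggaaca
Slc40a1, chr1:45982309-45982338, minus strand, 5′ UTR: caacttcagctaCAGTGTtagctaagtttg
Tfrc instead carried 4 hairpins of this form, all in its 3′ UTR.
Tfrc, chr16:32631305-32631334, plus strand, 3′ UTR: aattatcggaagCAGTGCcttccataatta
Tfrc, chr16:32631684-32631713, plus strand, 3′ UTR: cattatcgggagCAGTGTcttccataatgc
Tfrc, chr16:32631749-32631778, plus strand, 3′ UTR: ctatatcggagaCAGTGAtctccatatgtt
Tfrc, chr16:32631796-32631825, plus strand, 3′ UTR: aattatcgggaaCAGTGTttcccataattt

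Hairpins of this form were present in the 5′ UTR of 22 of 19920 genes of the table (0.11%) and in the 3′ UTR of 93 of 19979 genes (0.465%). A match describes the sequence only, and binding was not measured. By textbook knowledge a hairpin in the 5′ UTR controls translation, which mRNA levels do not show, and hairpins in the 3′ UTR of Tfrc protect that mRNA from decay when iron is low. The other 4 genes, Slc11a1, Hmox1, Trf and Cp, had none of this form.

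As background for the tests, limma on log2(FPKM + 1) with Benjamini-Hochberg adjusted p-values (q values) over the 27414 genes called 11.2% of all genes for SMCs and 10.6% for pericytes, at a threshold of 0.05. Among the 13349 genes with at least 1 FPKM in at least 4 libraries, fitted alone, the shares were 22.8% and 22.1%, and since all 8 iron genes are expressed these are the nearer background. With a log2 difference above 2 as well, the shares were 2.66% and 3.24% of the 27414 genes and 5.66% and 6.73% of the 13349. Of the genes called among the 27414, 51.2% were higher in SMCs (45.0% with the fold threshold), and 63.8% (55.4%) were so when the libraries were rescaled to a common sum as TPM. Against this, 5 of the 7 tested iron genes were higher in SMCs (Slc40a1, Cp, Hmox1, Trf and Slc11a1), 3 of them with a log2 difference above 2, 1 was higher in pericytes (Tfrc), and Fth1 did not pass. For the same 5 genes all SMC libraries exceeded all pericyte libraries, as for 12.5% of all genes, and for Tfrc the reverse held, as for 12.1% of all genes. These separation shares are over the 27414 genes and were not computed over the 13349. The median log2 difference, SMC minus pericyte, was 1.53 over the 7 genes, -0.02 over all genes tested and -0.046 over the 13349. The iron genes were listed with earlier results of these data known, so these counts describe the list.

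**Figure D1:**
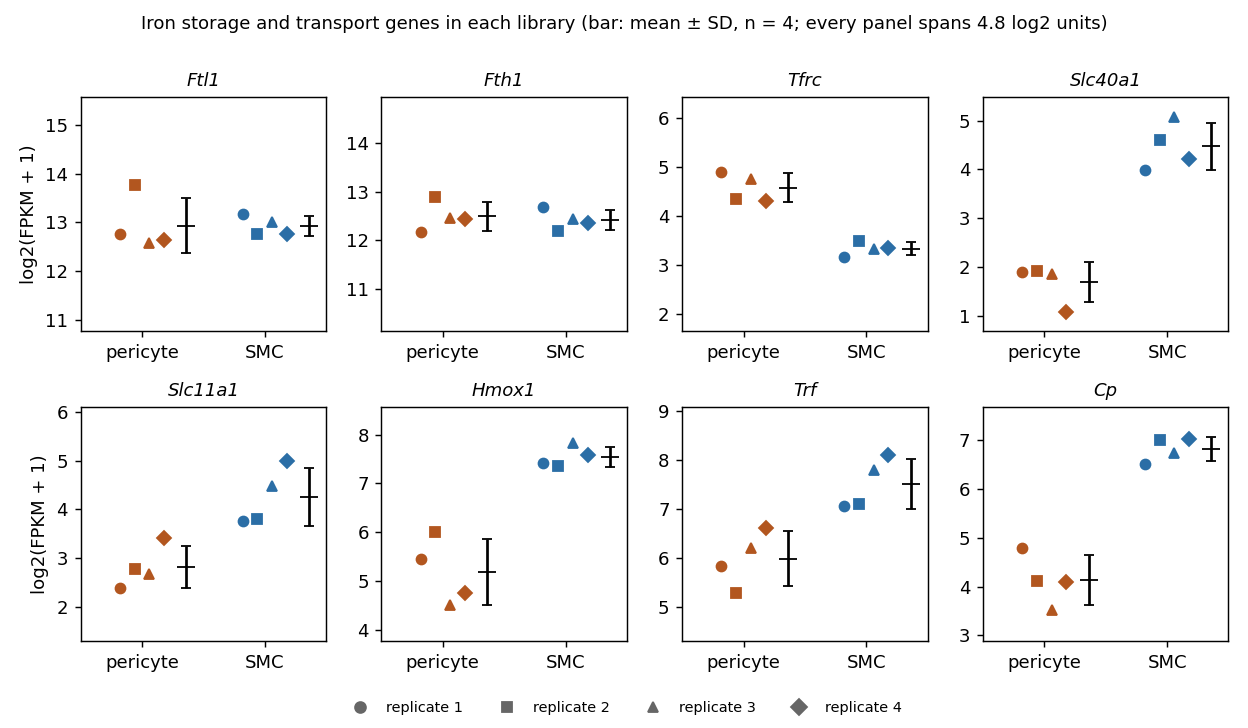
Expression of the 8 iron storage and transport genes as log2(FPKM + 1) on the y axis, in 4 pericyte and 4 SMC libraries on the x axis. Symbols mark the replicate number, black bars give mean ± SD, and every panel spans 4.8 log2 units. Both ferritin chains overlap between the groups, Tfrc is higher in all pericyte libraries, and the other 5 genes are higher in all SMC libraries.

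Ferritin was among the most abundant mRNAs in both cell populations, and the libraries of the groups overlapped for both of its chains. Ftl1, which encodes the light chain (chr7:52713314-52715254, minus strand), had 6931, 13924, 6089 and 6347 FPKM in pericyte replicates 1 to 4, and 9195, 6926, 8168 and 6938 FPKM in SMC replicates 1 to 4. Pericyte replicate 2 was the highest of all libraries, and the other 3 pericyte libraries lay near or below the lowest SMC library. On the log2(FPKM + 1) scale the pericyte mean was 12.93 ± 0.56 and the SMC mean 12.92 ± 0.20 (SD over 4 libraries each). The difference in log2, SMC minus pericyte, was -0.01 on FPKM as deposited, 0.23 on TPM and 0.65 after quantile scaling, so its direction depended on the scaling. The values that chose the gene are its ranks: Ftl1 was the highest gene of SMC replicates 1 and 2, the second of SMC replicate 4 (after Crip1, at 7790 FPKM) and the third of SMC replicate 3 (after Dcpp3 and Nupr1). In pericyte libraries it ranked between 3 and 6.

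Fth1, the gene of the iron-oxidizing heavy chain (chr19:10057193-10059582, plus strand), had 4636, 7629, 5687 and 5576 FPKM in pericyte replicates 1 to 4, and 6541, 4686, 5513 and 5265 FPKM in the SMC replicates. Neither group stood above the other. The log2 difference, SMC minus pericyte, was -0.08 with a 95% confidence interval from -0.48 to 0.31 (standard error 0.17, limma q = 0.796). The sign of this difference turned with TPM (0.16), with quantile scaling (0.35), with libraries scaled without their highest genes (0.07) and without pericyte replicate 2 (0.05), and no alternative brought it past the threshold (limma q from 0.211 to 0.978). Fth1 ranked between 5 and 15 in pericyte libraries and between 3 and 5 in SMC libraries.

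Pericyte replicate 2 had the largest summed FPKM of all libraries (1190435, against 656405 to 782014 in the others) and held the highest value of both chains. As a share of the summed FPKM of its library, Ftl1 had 1.0%, 1.17%, 0.847% and 0.812% in pericyte replicates 1 to 4 and 1.25%, 1.06%, 1.17% and 0.993% in SMC replicates 1 to 4. The shares of Fth1 were 0.641% to 0.791% in pericytes and 0.714% to 0.887% in SMCs. For both chains the ranges of the groups overlapped on this scale too, and the high FPKM of pericyte replicate 2 no longer stood above all SMC libraries. Together the chains made up 1.66 ± 0.12% of summed FPKM in pericytes against 1.90 ± 0.18% in SMCs (SD over 4 libraries each).

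The balance of light to heavy chain varied more among pericyte libraries than among SMC libraries. The ratio of Ftl1 to Fth1 FPKM was 1.5, 1.83, 1.07 and 1.14 in pericyte replicates 1 to 4 and 1.41, 1.48, 1.48 and 1.32 in SMC replicates 1 to 4. Light chain mRNA exceeded heavy chain mRNA in all 8 libraries, and the SMC ratios lay inside the pericyte range; the difference in spread was not tested. Near-identical copies can share reads with both genes. Those listed had little signal, with at most 2.77 FPKM for the light chain copy Ftl2, at most 2.90 FPKM for the pseudogene Fth-ps2 and at most 0.312 FPKM for mitochondrial ferritin (Ftmt). Reads that unlisted copies may have given to either gene cannot be seen here.

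**Figure D2:**
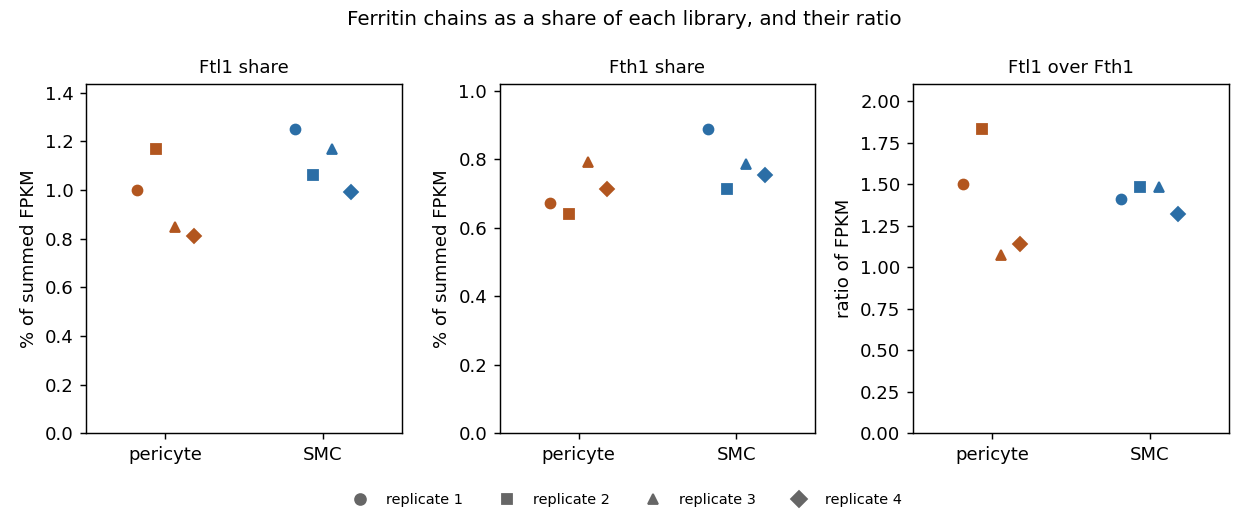
The first 2 panels give the share of Ftl1 and of Fth1 in the summed FPKM of each library (y axis, in percent), and the third gives the ratio of Ftl1 to Fth1 FPKM, for 4 pericyte and 4 SMC libraries (symbols mark the replicate). Shares overlap between groups, and the ratio runs from 1.07 to 1.83 in pericytes and from 1.32 to 1.48 in SMCs.

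The transferrin receptor and ferroportin differed in opposite directions. Tfrc, which encodes the receptor that brings transferrin-bound iron into the cell (chr16:32609006-32632880, plus strand), had 29.1, 19.4, 26.1 and 18.9 FPKM in pericyte replicates 1 to 4. The SMC replicates had 8.02, 10.2, 9.0 and 9.21 FPKM. The groups did not overlap, and the pericyte mean was 2.57 times that of SMCs (log2 difference -1.25, standard error 0.15, limma q = 0.00132). Over 16 alternatives the log2 difference stayed between -1.34 and -1.05.

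Slc40a1, the gene of the exporter ferroportin (chr1:45964915-45982439, minus strand), had, with Cp, the largest log2 differences of the 8 genes, and the order of the pair turned without pericyte replicate 1, pericyte replicate 4 or SMC replicate 3. It had 2.76, 2.81, 2.60 and 1.12 FPKM in pericyte replicates 1 to 4 and 14.9, 23.3, 32.8 and 17.6 FPKM in SMC replicates 1 to 4. The lowest SMC library was above the highest pericyte library, and the mean in SMCs was 9.55 times that in pericytes (log2 difference 2.78, standard error 0.29, limma q = 0.000617). As the lowest of the 8 genes in pericytes it is also the one for which the added 1 FPKM shrinks the fold most. The ratio of Slc40a1 to Tfrc FPKM lay between 0.0595 and 0.144 in pericyte libraries and between 1.86 and 3.64 in SMC libraries, so exporter mRNA was below receptor mRNA in every pericyte library and above it in every SMC library.

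The extracellular partners of this traffic were both higher in SMCs. Cp encodes ceruloplasmin, the copper-bearing oxidase (chr3:19857054-19909145, plus strand). The pericyte replicates 1 to 4 had 26.6, 16.3, 10.5 and 16.1 FPKM. In the SMC replicates it had 90.4, 127, 106 and 130 FPKM. The groups were far apart, with a mean 6.52 times as high in SMCs (log2 difference 2.69, standard error 0.26, limma q = 0.000476), and SMC libraries varied less (coefficient of variation 16.5% against 38.7% in pericytes). Hps3 overlaps Cp on the other strand, at 5.24 to 13.1 FPKM in pericytes and 4.67 to 6.77 FPKM in SMCs, and since the strand setting is unknown, reads of these genes may be mixed.

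Trf encodes transferrin, the iron carrier of blood plasma (chr9:103106331-103132774, minus strand). Its level was 56.3, 37.9, 72.4 and 95.8 FPKM in pericyte replicates 1 to 4. It had 133, 136, 221 and 273 FPKM in SMC replicates 1 to 4. Replicates 3 and 4 were the higher libraries within both groups, and the groups did not overlap (log2 difference 1.53, standard error 0.35, limma q = 0.0187). The call was lost without SMC replicate 3 (limma q = 0.0537) and held under the other 15 alternatives. The annotation places the gene Gm20425 across the same locus and strand, and its 0.516 to 3.62 FPKM cannot be told apart from Trf reads with certainty.

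Of the genes tied to heme and phagocytosis, Hmox1 had the larger difference. It encodes the enzyme that opens the heme ring (chr8:77617490-77624495, plus strand). Pericyte replicates 1 to 4 had 43.1, 63.4, 21.9 and 26.2 FPKM, against 169, 162, 225 and 190 FPKM in SMC replicates 1 to 4. The SMC libraries lay close together and above all pericyte libraries, among which replicates 1 and 2 were the higher. The mean was 4.82 times as high in SMCs (log2 difference 2.35, standard error 0.33, limma q = 0.00225).

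Slc11a1 encodes NRAMP1, a pump known from macrophages that moves metal ions out of the phagosome (chr1:74421777-74432636, plus strand). It had 4.28, 5.87, 5.39 and 9.71 FPKM in pericyte replicates 1 to 4 and 12.5, 12.9, 21.2 and 31.1 FPKM in SMC replicates 1 to 4. The groups did not overlap, but the lowest SMC libraries were close to the highest pericyte library (log2 difference 1.44, standard error 0.34, limma q = 0.0212). The call was lost without pericyte replicate 1 (limma q = 0.0552), without pericyte replicate 3 (0.0576) or without SMC replicate 3 (0.0590). Without SMC replicate 3, which also decided Trf, 4 of the 7 genes passed instead of 6.

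Within each group the 8 genes kept a wide range of levels. In pericytes the order of mean FPKM was Ftl1, Fth1, Trf, Hmox1, Tfrc, Cp, Slc11a1 and Slc40a1, and the ranges over libraries overlapped between neighbours from Trf to Cp and between the ferritin chains. In SMCs the order was Ftl1, Fth1, Trf, Hmox1, Cp, Slc40a1, Slc11a1 and Tfrc, and only Trf with Hmox1 and Slc40a1 with Slc11a1 overlapped as neighbours. Tfrc thus moved from the fifth place in pericytes to the last in SMCs, and Slc40a1 from the last to the sixth. The 6 genes other than ferritin summed to 139 to 168 FPKM in pericyte libraries and to 427 to 651 FPKM in SMC libraries, against 11567 to 21553 and 11611 to 15736 FPKM for the ferritin chains.

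The genes most like each of the 8 were sought by the root mean square (RMS) difference of log2 values over the 8 libraries, each gene centred on its mean, among the 13612 genes that averaged 1 FPKM or more. In the case of Ftl1 these were Haus1, Fdx1l and Isca2 (RMS difference 0.086 to 0.088). The median distance of all genes from Ftl1 was 0.69, but the closest of so many genes lie far below it by the search itself. For Fth1 the closest were Hdgf, Mfsd5 and Alkbh5 (0.060 to 0.094). Among the 8, each chain was nearest to the other, at 0.227, which is farther than the genes just named. For Tfrc they were Casc5, Mns1 and Ccne2 (0.111 to 0.121), and none of the other 7 came closer than 0.703. For Slc40a1 they were Edn1, Col8a2 and Ch25h (0.203 to 0.270), for Cp they were Clec1a, Nox4 and Clec14a (0.154 to 0.176) and for Hmox1 they were Gm11517, Cpne8 and Npdc1 (0.152 to 0.194). Slc11a1 was closest to Gpr20, Ndrg2 and Ccl19 (0.095 to 0.155) and Trf to Stard13, Cyb5r3 and Aplp2 (0.142 to 0.161), and these 2 were nearest to each other at 0.294.

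The rest of the iron and heme pathway was taken from 6 lists, of which 71 of 77 symbols were tested. At a q value below 0.05, 21 of the 71 genes (29.6%) were higher in SMCs, 2 (2.82%) were higher in pericytes and 48 did not pass, and the median log2 difference was 0.16. Of the 60 that had at least 1 FPKM in at least 4 libraries, 19 (31.7%) were higher in SMCs and 1 in pericytes, beside 22.8% and 22.1% of all such genes. With each library left out in turn, between 18 and 22 genes were higher in SMCs.

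Among 18 other uptake and transport genes, 6 were higher in SMCs and 1 in pericytes. From here on values are means ± SD over the 4 libraries of each group. Of the STEAP metalloreductases, which reduce iron so that it can cross membranes, Steap4 averaged 18.6 ± 10.2 FPKM in pericytes against 144 ± 20.6 FPKM in SMCs (log2 difference 3.01, limma q = 0.00107). Steap3, the reductase of transferrin endosomes, had 3.28 ± 1.77 and 24.6 ± 7.65 FPKM (log2 difference 2.62, limma q = 0.00177), and Steap2 had 0.885 ± 0.632 and 6.57 ± 2.63 FPKM (limma q = 0.00329). Steap1 did not pass, at 2.05 ± 0.814 and 12.9 ± 17.7 FPKM (limma q = 0.209). Scara5, a receptor for ferritin, had 3.58 ± 1.76 and 35.1 ± 20 FPKM (log2 difference 2.88, limma q = 0.00285). Heph and Cybrd1, a second copper oxidase and a ferric reductase, were higher in SMCs at lower levels (limma q = 0.00210 and 0.0202). The metal ion importer Slc11a2 had 30.5 ± 6.68 FPKM in pericytes and 22.6 ± 5.18 FPKM in SMCs (limma q = 0.257). Lcn2 and Ltf, proteins of neutrophil granules that bind iron or its carriers, varied over a wide range in both groups and did not pass (limma q = 0.937 and 0.941). Lcn2 had 22 to 134 FPKM in pericytes and 15.1 to 115 FPKM in SMCs, and Ltf had 19.4 to 181 and 7.1 to 115 FPKM. The neutrophil marker sums also varied widely, from 610 to 4458 FPKM in pericytes and from 293 to 3573 FPKM in SMCs.

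Storage and sensing genes other than Ftl1 and Fth1 mostly did not pass. Of 7 genes only Aco1, the gene of iron regulatory protein 1, was higher in SMCs (10.8 ± 3.36 against 20.5 ± 2.52 FPKM, limma q = 0.0298). Ireb2, which encodes iron regulatory protein 2, had 3.82 ± 0.981 and 3.16 ± 1.06 FPKM (limma q = 0.571). Ncoa4, the receptor that delivers ferritin for breakdown, had 87.4 ± 15.4 FPKM in pericytes and 74.1 ± 12.5 FPKM in SMCs (limma q = 0.396). Fbxl5, which targets iron regulatory proteins for decay, and the iron chaperones Pcbp1 and Pcbp2 had q values of 0.557, 0.469 and 0.662 by limma.

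Of 8 genes around hepcidin, the hormone that removes ferroportin from the cell surface, 3 were higher in SMCs. Hfe, which encodes a partner of the transferrin receptor, had 10.2 ± 4.83 FPKM in pericytes and 49.6 ± 7.02 FPKM in SMCs (log2 difference 2.29, limma q = 0.00388). Bmp6, the ligand that induces hepcidin in liver, had 2.15 ± 0.529 and 4.93 ± 0.411 FPKM (limma q = 0.00272), and Neo1, which encodes the receptor neogenin, was also higher (limma q = 0.0178). Hepcidin itself (Hamp) had at most 0.830 FPKM in a pericyte library and at most 1.12 FPKM in an SMC library. Fam132b, the gene of erythroferrone, did not pass (limma q = 0.466).

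Heme handling had 4 of 10 genes higher in SMCs. Abcg2, the gene of a transporter that carries porphyrins out of the cell, had 13.4 ± 1.47 FPKM in pericytes and 108 ± 59.0 FPKM in SMCs (log2 difference 2.77, limma q = 0.00178), and the lysosomal heme transporter gene Slc48a1 had 34.6 ± 9.40 and 74.3 ± 9.12 FPKM (limma q = 0.00803). Cd163 and Lrp1, receptors for hemoglobin and for heme bound to hemopexin, were also higher (limma q = 0.00466 and 0.0111). Hmox2, the constitutive partner of Hmox1, had 58.1 ± 15.8 FPKM in pericytes and 55.1 ± 5.85 FPKM in SMCs (log2 difference -0.05, limma q = 0.900), and Blvrb, which acts on a product of heme breakdown, had a q value of 0.106 by limma.

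In heme and iron-sulfur cluster synthesis 14 of 18 genes did not pass, among them the cluster assembly genes Iscu, Bola3, Isca1 and Isca2 (limma q from 0.0557 to 0.892). Alas1 and Fech, the first and last enzymes of heme synthesis, and Abcb10 were higher in SMCs (limma q = 0.0263, 0.00158 and 0.00294). Slc25a37, the gene of the mitochondrial iron importer mitoferrin 1 from the uptake and transport list, was higher in pericytes, at 5.32 ± 1.21 FPKM against 3.45 ± 0.323 FPKM in SMCs (log2 difference -0.49, limma q = 0.0435). It passed in 2 of the 16 alternatives, with limma q values from 0.0242 to 0.483 over the 16.

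Oxidant response genes were listed because NRF2 and BACH1 are known to control ferritin and Hmox1. Nfe2l2, the gene of NRF2, had 83.8 ± 4.73 FPKM in pericytes and 116 ± 14.1 FPKM in SMCs (log2 difference 0.46, limma q = 0.0137), and Bach1 had 3.65 ± 1.49 and 4.39 ± 1.58 FPKM (limma q = 0.678). Of 8 other genes listed with them, 3 were higher in SMCs: Nqo1 (log2 difference 2.27, limma q = 0.000182), Srxn1 (2.08, 0.00212) and Osgin1 (1.23, 0.0190). Txnrd1, Gclm, Gclc, Slc7a11 and Keap1 did not pass (lowest limma q 0.212). RefSeq gene starts (GRCm38.p6, 250 bases before to 50 after) matched 5 of the 8 iron genes by symbol, with 8 windows in all. Iron genes without a window, and bases beyond these windows, were not searched. The NRF2 and BACH1 element TGANNNNGC on either strand was present in 1 of these windows, that of Slc11a1, and in 41.3% of all 32851 windows. CAGTG in the sense strand of the last 50 bases was present in none of the 8 and in 7.2% of all. The hairpins given above were sought in whole UTRs of a different annotation, so the results of the searches cannot be set against each other.

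**Figure D3:**
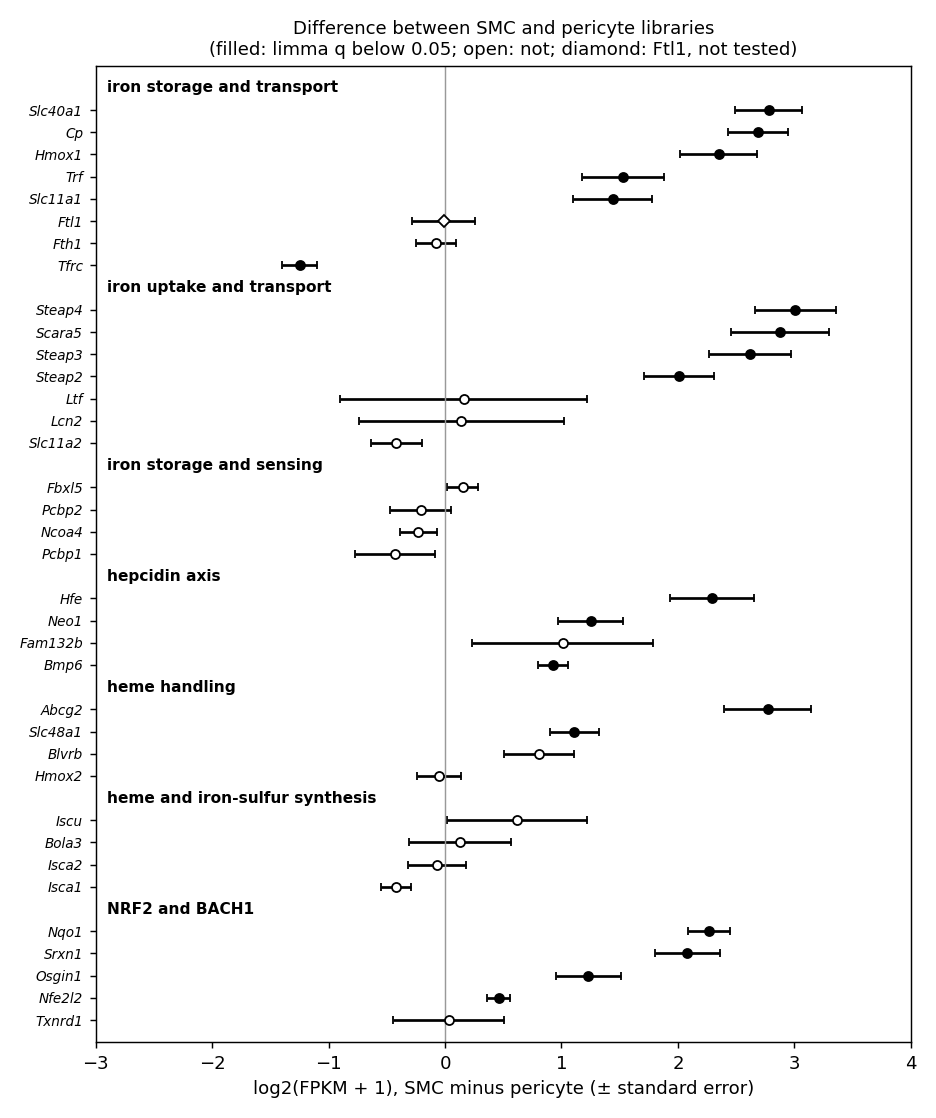
Differences in log2(FPKM + 1), SMC minus pericyte, on the x axis with the standard error as bars, for the 8 iron storage and transport genes and the named genes of 6 pathway lists (rows). Filled circles have a limma q value below 0.05, open circles do not, and the diamond is Ftl1, which was not tested. Tfrc stands at -1.25 on the pericyte side, and 5 genes from Slc11a1 (1.44) to Slc40a1 (2.78) stand on the SMC side.

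Markers of other cells moved with the same groups, and in bulk RNA fewer cells of a type cannot be told apart from less RNA per cell. The 11 endothelial markers summed to 129 to 234 FPKM in pericyte libraries and 606 to 1692 FPKM in SMC libraries, with 9 higher in SMCs, although the gate was set to remove CD31-labelled cells. Of 11 fibroblast markers 10 were higher in SMCs (sums 1131 to 2117 against 5617 to 6871 FPKM). Dcn was called higher in pericytes, at 509 to 1160 FPKM against a listed 0 in every SMC library. That 0 may be a failed estimate, as for Ubb below, so the direction of Dcn is uncertain. The sums include Dcn. All 10 lymphocyte markers, Ptprc among them, were higher in pericytes (sums 2384 to 4355 against 34.6 to 69.9 FPKM). The lymphocyte sums thus had the direction of Tfrc, and the endothelial and fibroblast sums that of the 5 genes higher in SMCs.

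Macrophage markers were mixed. Of 17 markers 7 were higher in SMCs, among them C1qa, C1qb, C1qc, Mrc1 and Marco, and 2 were higher in pericytes, Ccr2 and Mpeg1, while the abundant markers Lyz2 and Cd68 did not pass (limma q = 0.892 and 0.833). Their sums overlapped, at 1086 to 1992 FPKM in pericytes and 1570 to 2344 FPKM in SMCs. Marco and Vsig4 were listed at 0 in at least 1 pericyte library. Schwann cell markers summed to 322 to 1389 FPKM in pericytes, with replicates 3 and 4 above replicates 1 and 2 as for Trf, and to 824 to 1099 FPKM in SMCs. Among SMC libraries the endothelial sums were 606, 815, 1365 and 1692 FPKM in replicates 1 to 4. The mural sums were 1829, 2103, 3503 and 5830 FPKM. Both sums were also higher in replicates 3 and 4, as were Trf, Slc11a1 and Hmox1. Among pericyte libraries neither sum had that split. Erythroid markers summed to 124 to 3608 and 127 to 813 FPKM, and none of their 7 genes passed. The part of any of these cells in the iron gene values was not tested.

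All 13 mural genes were measured in all libraries, and Rgs5 alone passed (higher in SMCs, limma q = 0.0240), or 7 of the 13 when only genes with at least 1 FPKM in at least 4 libraries were fitted, with Pdgfrb at 3.21 to 17.6 FPKM in pericytes and 15.6 to 91.5 FPKM in SMCs. The ubiquitin gene Ubb, needed by all cells, had a listed value of 0 in each of the 8 libraries, so an exact 0 in this table can be a failed estimate.

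**Figure D4:**
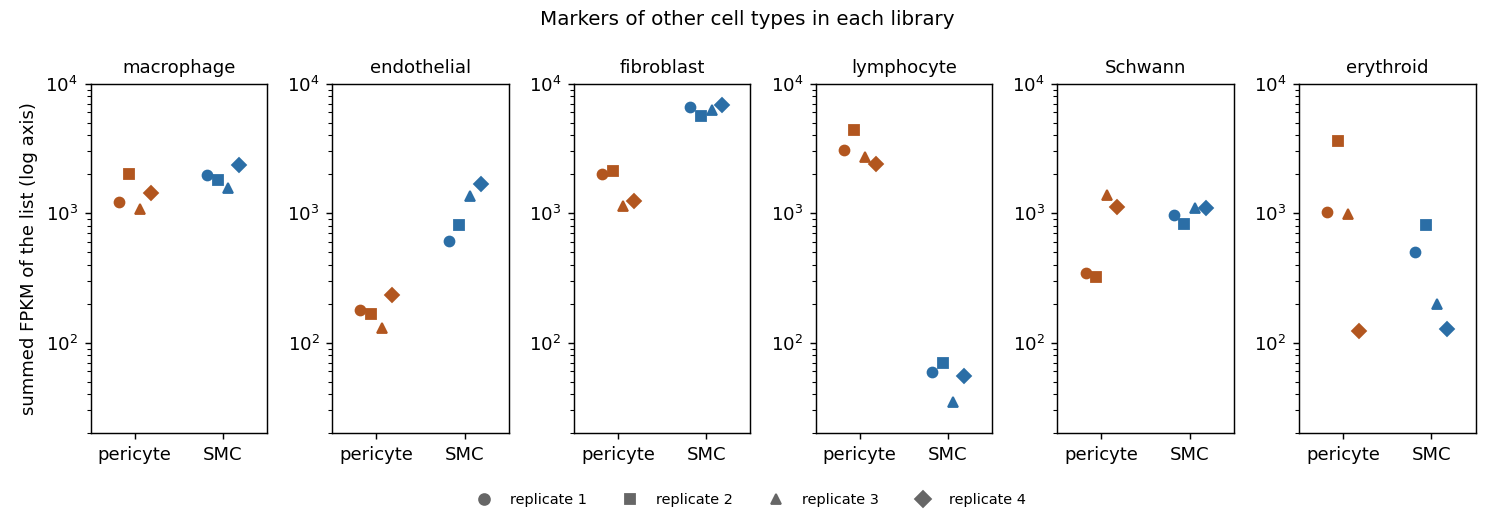
Summed FPKM (y axis, log scale) of marker lists for 6 other cell types in 4 pericyte and 4 SMC libraries (symbols mark the replicate). Endothelial and fibroblast sums are higher in every SMC library, lymphocyte sums are higher in every pericyte library (at least 2384 against at most 69.9), and macrophage, Schwann cell and erythroid sums overlap.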

How the data were processed

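The authors checked reads with FastQC, aligned them with TopHat and Bowtie2 to NCBI Build 37 of mouse with an Ensembl annotation, and deposited FPKM per gene and library. The program that computed FPKM and its strand setting are not given in the sources used here. Read numbers are unknown, so no counting error is given. The most common ratio between libraries of values under 0.3 FPKM gave relative depths from 0.863 to 1.07, the largest 1.23 times the smallest.

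The values were put on the log2(FPKM + 1) scale here and compared by limma 3.58.1 under R 4.3.3 (eBayes, no covariate, Benjamini-Hochberg adjustment). Of 37979 genes, 10565 listed at 0 in every library were left out. This scale understates folds of low genes. The test was checked on simulated data. Groups came from the sample titles. Members, gene lists and tests were chosen with earlier results of these data known. Named pathway genes are all with a q value below 0.05 and a log2 difference above 2, and otherwise up to 4 of the most abundant per list; Steap1, Aco1, Ireb2, Heph, Cybrd1, Cd163, Lrp1, Hamp, Alas1, Fech, Abcb10, Slc25a37, Bach1, Gclm, Gclc, Slc7a11 and Keap1 were named after their values were seen. Some items are not reported here. Positions and hairpins were read from GENCODE version 1 for mouse (Ensembl 65) and its genome. Alternatives were another pseudocount (0.1), a filter (1 FPKM in 4 libraries), quantile and TPM scaling, the replicate block, replicates 1 and 2 against 3 and 4 as a covariate, an intensity trend and each library left out. Scaling without the highest 0.1% of genes, the counts of pathway genes under each alternative, and the list counts with the filter and the block, were added after seeing the data. Python 3.11.15 with pandas 2.3.3 and matplotlib 3.10.9 was used.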

Additional observations from a re-analysis of the deposited data

Results flagged for a closer look

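Each group of 4 libraries was searched for a value far from the other 3, over 72 groups of the genes named by the rule, where about 3.6 would be found by chance, and 4 were found. Ftl1 had 13924 FPKM in pericyte replicate 2 against 6089 to 6931 FPKM in the other pericyte libraries. Slc40a1 had 1.12 FPKM in pericyte replicate 4 against 2.60 to 2.81 FPKM in the others. Ltf had 7.10 FPKM in SMC replicate 4 against 74.0 to 115 FPKM, and Fam132b had 1.71 FPKM in pericyte replicate 3 against 13.1 to 17.2 FPKM.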

How the results depend on the processing

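Of 112 comparisons of a tested member's difference with an alternative, 104 kept direction and call, 4 lost the call and 4 turned. The log2 difference of Fth1 turned from -0.08 to 0.35 with quantile scaling, 0.16 with TPM, 0.07 without the highest genes and 0.05 without pericyte replicate 2 (-0.19 to 0.05 with each library left out), and that of Ftl1, which was not tested, went from -0.01 to 0.65 with quantile scaling and turned as well with TPM (0.23), without the highest genes (0.14), and without pericyte replicate 2 (0.27), SMC replicate 2 (0.04) or SMC replicate 4 (0.04). Slc11a1 lost its call without pericyte replicate 1, pericyte replicate 3 or SMC replicate 3, and Trf without SMC replicate 3, with adjusted p-values by limma from 0.0537 to 0.0590. With each library left out, between 4 and 6 members passed. Genes higher in SMCs with the fold threshold numbered 728, or 1421 with a pseudocount of 0.1. The number of pathway genes higher in pericytes, 2, was 1 with the filter, with TPM, with the replicate block and with scaling without the highest genes, and 1 to 2 with each library left out; Slc25a37 was among them in 2 of 16 alternatives, so a count of 2 does not always name the same genes. The cause was not tested. Same-numbered libraries are not stated to share animals, and their deviations from the group means correlated across genes at 0.0794, 0.319, 0.437 and 0.474, with 2 of 4 pericyte libraries closest to their own number. With the replicate block 6 members passed, as without it, and 3175 and 2978 genes had a q value below 0.05 in place of 3060 and 2917. Mural markers that passed numbered 6 of 13 with the block (Pdgfrb, Rgs5, Kcnj8, Abcc9, Notch3 and Anpep, all higher in SMCs) and 1 without it. Of the 7 erythroid markers, 1 passed with the block (Hbb-b1, higher in pericytes, limma q = 0.0428) and none without it. Read depth is unknown, so counting error could not be given for any gene.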
